A study of Mus musculus with 3 samples.

Results

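Adipogenic transcription factors were followed through single cells of mouse dorsal skin at 3 ages. The genes were picked by symbol, and the rule that picks them uses no measured value: Pparg, Cebpa, Cebpb, Cebpd, Ebf1, Ebf2, Zfp423, Zfp467 and Klf15. Of these 9 names 8 were matched among the 27998 genes of the count matrices, and Cebpd was not analysed here. The samples were 1 library each from neonatal, 3 week and 2 month C57BL/6 mice, with no genetic change or treatment named in any group. Minced skin was digested with collagenase D and DNase, and single cells were captured with a droplet kit that reads the 3' end of transcripts. Each transcript molecule is counted once, as a unique molecular identifier (UMI). The series concerns IL1 and WNT signalling in dermal adipocyte lineage cells, and the number of animals behind a library is not given in the sources used here.

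Fat cells form in the skin from fibroblast precursors, and a cascade of transcription factors drives the change. Cebpb encodes C/EBPβ, which acts early, and Pparg and Cebpa encode PPARγ and C/EBPα, which induce each other and switch on the genes of the mature fat cell. Ebf1 and Ebf2 encode early B cell factors, of which Ebf2 also marks precursors and takes part in the thermogenic fat programme. Zfp423 and Zfp467 encode zinc finger proteins that act in precursors. Klf15 encodes a Krüppel-like factor that rises late in adipogenesis and responds to glucocorticoids. Several of these factors also work outside fat, Pparg in sebaceous gland cells, Cebpa in the epidermis and macrophages, and Ebf1 in vessel walls.

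On the mouse build GRCm38 the GENCODE vM21 annotation placed Pparg at chr6:115360951-115490399, Cebpa at chr7:35119293-35121928, Cebpb at chr2:167688915-167690418 and Klf15 at chr6:90462576-90475238, all on the plus strand. Ebf1 lay at chr11:44617317-45008091 and Ebf2 at chr14:67233292-67430918, also on the plus strand. Zfp423 lay at chr8:87661810-87959595 and Zfp467 at chr6:48427697-48445825, both on the minus strand. Promoter sequences from RefSeq (GRCm38.p6) were found for 7 of the 8 genes, with 11 annotated starts. The sequences below are printed because they belong to the 3 factors at the centre of the cascade, and for Pparg because its first and its most downstream start head different transcripts. The first start of Pparg gives the widely expressed form of the protein and the downstream one the form enriched in fat. Each run covers the 250 bases before the start, on the plus strand, at chr6:115360894-115361143 and chr6:115421816-115422065 for Pparg, chr7:35119043-35119292 for Cebpa and chr2:167688665-167688914 for Cebpb. Capitals mark matches to the letters searched on both strands, which were TTGNNNCAA (the C/EBP dyad), CCCNNGGG (the EBF palindrome), TGACG (the core of the cyclic AMP response element) and the PPAR direct repeat of the nuclear receptor half-site.
Pparg, first start: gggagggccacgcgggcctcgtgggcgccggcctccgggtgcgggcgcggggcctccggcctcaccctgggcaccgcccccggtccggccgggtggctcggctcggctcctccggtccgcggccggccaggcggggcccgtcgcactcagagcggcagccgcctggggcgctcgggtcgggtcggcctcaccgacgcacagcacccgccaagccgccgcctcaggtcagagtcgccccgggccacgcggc
Pparg, downstream start: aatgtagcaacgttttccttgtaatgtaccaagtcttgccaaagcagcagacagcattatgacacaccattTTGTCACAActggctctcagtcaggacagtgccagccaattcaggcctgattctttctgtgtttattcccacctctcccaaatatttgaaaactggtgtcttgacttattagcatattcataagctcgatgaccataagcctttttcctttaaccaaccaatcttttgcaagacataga
Cebpa: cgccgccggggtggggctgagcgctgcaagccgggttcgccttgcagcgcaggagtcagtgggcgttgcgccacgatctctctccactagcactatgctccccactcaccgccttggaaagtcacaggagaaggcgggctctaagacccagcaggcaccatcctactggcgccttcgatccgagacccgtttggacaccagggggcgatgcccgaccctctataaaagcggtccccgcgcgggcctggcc
Cebpb: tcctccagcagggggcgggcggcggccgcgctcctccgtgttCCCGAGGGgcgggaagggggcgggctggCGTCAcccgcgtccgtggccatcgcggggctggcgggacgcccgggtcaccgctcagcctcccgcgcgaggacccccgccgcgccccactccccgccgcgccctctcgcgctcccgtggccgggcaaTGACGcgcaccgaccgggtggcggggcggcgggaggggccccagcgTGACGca
The downstream Pparg start had a C/EBP dyad whose match began 179 bases upstream, and the other 2 Pparg starts had no match to any of the 4 motifs. Cebpb had 3 matches to TGACG, at 180, 53 and 7 bases upstream, and 1 to the EBF palindrome at 208 bases. Zfp423 had a C/EBP dyad at 235 and an EBF palindrome at 28 bases, both before 1 of its 2 starts. Zfp467 had an EBF palindrome at 173 bases, and Klf15 had TGACG at 78 and 6 bases. No match was found before Cebpa or before the 2 starts of Ebf1. Over 32851 starts of all genes searched the same way, 5.02% held the C/EBP dyad, 11.8% the EBF palindrome, 17.8% TGACG and 0.0335% the PPAR repeat. A match describes letters only. Reads from the 3' end do not tell the Pparg transcripts apart.

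Filtering left 7911 cells in neonates, 8900 at 3 weeks and 9332 at 2 months. The median cell had 8685, 11142.5 and 8529.5 UMIs at the 3 ages. Each cell was placed in a class by its share of detected markers, and none of the 8 genes served as a marker. Of the 13 classes the fibroblast-like one was the biggest, with 5973, 5590 and 4832 cells in the order neonatal, 3 weeks and 2 months, which is kept below for all sets of 3 values. Between 770 and 1171 cells per library had no class. The leading genes of the fibroblast-like class included its own markers Col1a1, Col1a2, Lum, Dcn and Clec3b. Levels are UMIs of a gene relative to all UMIs of the class in that library, in the usual unit CPM, with exact 95% Poisson intervals that cover counting error only. With 1 library per age no difference between ages has a replicate check, so none carries a p-value, and age cannot be told apart from the library. Levels are compared within a gene, since counts from the 3' end do not give levels between genes.

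Pparg was highest in adipocyte-like cells and next in sebaceous-like cells, with low levels in fibroblast-like cells. The adipocyte-like class, gated on genes such as Adipoq and Plin1, held 36, 5 and 4 cells. Its Pparg level was 185 (158 to 216), 286 (204 to 389) and 362 (227 to 548) CPM. Sebaceous-like cells, which numbered 4, 21 and 43, had 109, 131 and 122 CPM, and these ranges over libraries did not overlap. Endothelial-like cells followed with 21.7, 47.5 and 44.6 CPM and mural-like cells (pericytes and smooth muscle) with 21.8, 10.97 and 41.9 CPM, and these neighbours overlapped. Fibroblast-like cells had 18.9, 5.10 and 1.39 CPM. No Pparg UMI was seen in Schwann-like cells of any library, which allows up to 2.82, 3.48 and 2.57 CPM at 3 counts.

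The C/EBP genes had different class patterns. Cebpa was highest in the adipocyte-like cells, with 523, 393 and 395 CPM. Sebaceous-like cells had 246, 342 and 359 CPM, keratinocyte-like cells 153, 115 and 166 CPM and macrophage-like cells 26.0, 39.1 and 60.8 CPM. The libraries of each of the 3 top classes lay above all libraries of the class below. Fibroblast-like cells had 30.01, 24.1 and 26.1 CPM of Cebpa. Cebpb was present in every class and was at 2002, 2447 and 3314 CPM in mural-like cells, the highest class by its median. Fibroblast-like cells had 984, 697 and 1248 CPM, and sebaceous-like cells, with 914, 1534 and 2074 CPM, overlapped with both. The adipocyte-like cells, with 635, 643 and 1218 CPM of Cebpb, were below the fibroblast-like cells of the same library each time. Schwann-like cells had 175, 260 and 233 CPM.

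Ebf1, Ebf2 and Zfp423 had their highest levels in fibroblast-like, adipocyte-like and vessel classes. Ebf1 was at 495, 234 and 250 CPM in fibroblast-like, 905, 351 and 489 in mural-like, 212, 397 and 366 in endothelial-like and 412, 614 and 642 in adipocyte-like cells. Each of these 4 classes overlapped with its neighbour in the order of medians, and all lay above the other classes. The endothelial-like and adipocyte-like ranges did not overlap. Keratinocyte-like cells had 4.28, 1.41 and 1.64 CPM of Ebf1. With each cell thinned to 1500 UMIs, 45.0%, 26.8% and 29.3% of fibroblast-like cells had an Ebf1 UMI, against 0.382%, 0.150% and 0.244% of keratinocyte-like cells. Ebf2 was highest in mural-like cells, with 63.9, 57.8 and 130 CPM, and fibroblast-like cells, with 8.27, 20.5 and 58.2 CPM, overlapped with them at the upper end. Neonatal endothelial-like cells had no Ebf2 UMI, which allows up to 2.71 CPM, and later ones had 5.51 and 7.04 CPM. Zfp423 was at 9.41, 13.7 and 9.44 CPM in fibroblast-like and 27.1, 28.9 and 16.4 CPM in endothelial-like cells, with 2.18, 1.99 and 5.13 CPM in mural-like cells. Zfp467 was spread more widely, at 82.1, 54.3 and 69.3 CPM in mural-like, 26.2, 42.7 and 100.9 in endothelial-like, 57.4, 40.9 and 45.2 in mast-like and 24.1, 12.6 and 11.8 in fibroblast-like cells. Klf15 was highest in adipocyte-like cells, with 42.4, 64.3 and 132 CPM, above all other classes. Fibroblast-like cells had 0.835, 1.93 and 6.93 CPM of Klf15, and Schwann-like cells had more, with 10.3, 15.1 and 26.6 CPM.

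**Figure D1:**
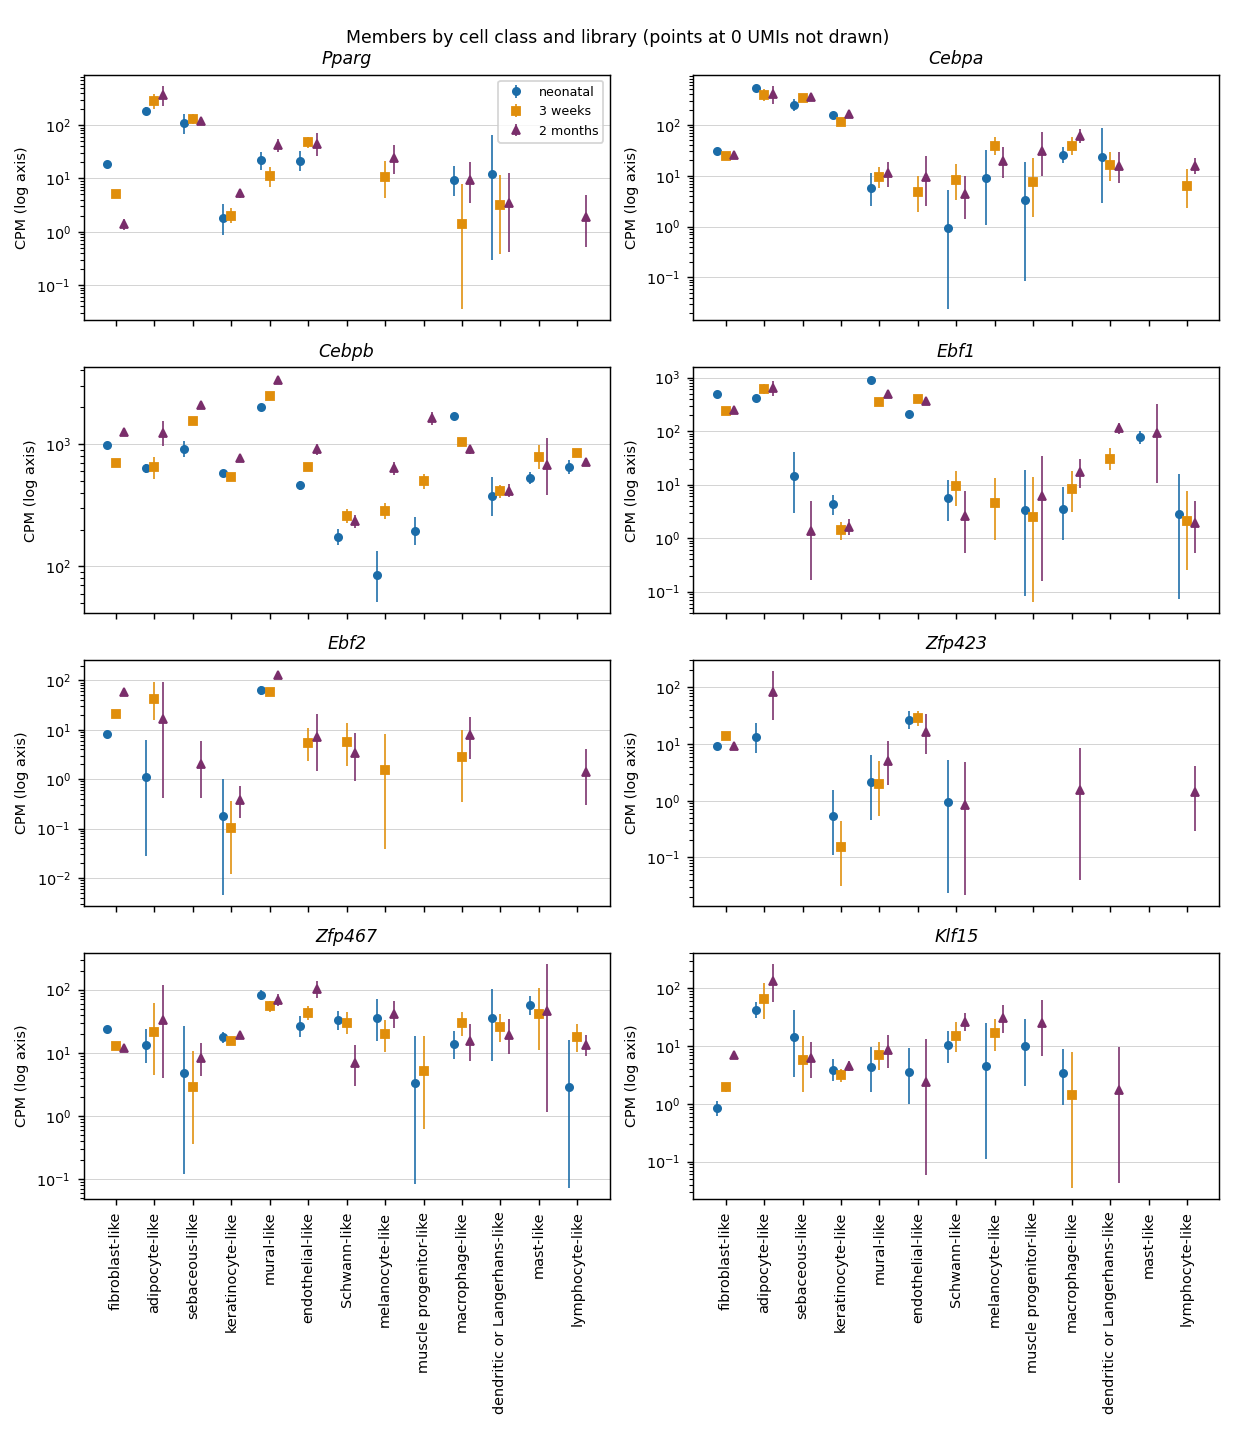
Level of each gene (y axis, CPM on a log axis) in 13 cell classes (x axis) of the neonatal, 3 week and 2 month libraries. Points are 1 library each and bars are 95% Poisson intervals. Adipocyte-like cells stood highest for Pparg, Cebpa and Klf15, while Ebf1 was high in fibroblast-like, adipocyte-like, mural-like and endothelial-like cells.

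Classes with 30 or more cells in every library were compared by summing counts per library and class, with the 3 libraries as replicates. The libraries differ in age, and all classes were in 1 fit that shares the spread. A p-value therefore sets a class difference against a spread pooled over all fitted classes in these 3 samples. The test was the quasi-likelihood test of edgeR with library as a block, adjusted by Benjamini-Hochberg over 11707 genes in each contrast. Of 56 tests (8 genes in 7 contrasts), 25 were higher and 6 lower in fibroblast-like cells at an adjusted p under 0.05, and 37 passed an unadjusted p of 0.05. Against keratinocyte-like cells 3 genes were higher and 1 lower, where 25.7% of all genes were higher and 20.1% lower. Ebf1 was higher by 7.32 on the log2 scale (SE 0.55, edgeR adjusted p = 1.21e-08), Ebf2 by 7.18 (edgeR adjusted p = 6.21e-07) and Zfp423 by 6.28 (edgeR adjusted p = 6.94e-06). Cebpa was lower in fibroblast-like cells, with a log2 difference of -2.25 (SE 0.44, edgeR adjusted p = 0.000317). These 4 calls held under all 9 alternative settings.

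Against mural-like cells 2 genes were higher and 3 lower, beside 12.7% and 10.3% of all genes. Zfp467 was lower in fibroblast-like cells, with a log2 difference of -1.92 (SE 0.48, edgeR adjusted p = 0.00641), Ebf2 with -1.74 (edgeR adjusted p = 0.0185) and Cebpb with -1.20 (edgeR adjusted p = 0.0425). Cebpa was higher by 1.88 (edgeR adjusted p = 0.00968) and Zfp423 by 2.08 (edgeR adjusted p = 0.0384). The mural calls of Cebpa, Cebpb, Ebf2 and Zfp423 were lost under several alternatives and that of Zfp467 without the 3 week library. With a mitochondrial limit of 5% the Cebpa difference was 0.77 (edgeR adjusted p = 0.47). The mural-like class also changed its make-up, with 128, 18 and 13 pericyte-like and 54, 255 and 184 smooth muscle-like cells. Ebf1 was higher in the pericyte-like part (1108, 784 and 994 CPM) than in the smooth muscle-like part (583, 313 and 459 CPM) in each library.

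In the other contrasts calls were mostly higher in fibroblast-like cells. Against Schwann-like cells 6 genes were higher and 1, Klf15, was lower by a log2 difference of -2.24 (edgeR adjusted p = 0.0296), with 17.1% and 11.7% of all genes called. The Klf15 call was lost without the 3 week library (edgeR adjusted p = 0.227), without the 2 month library and with no library block. Against lymphocyte-like cells 6 were higher and 0 lower (24.3% and 18.9% of all genes), and against macrophage-like cells 3 were higher and 0 lower (20.4% and 16.4%). Against muscle progenitor-like cells 3 were higher and 0 lower (13.9% and 6.21%), namely Ebf1, Ebf2 and Zfp423. Against endothelial-like cells 2 were higher and 1 lower (15.1% and 13.1%). Cebpa was higher there by 3.17 (SE 0.61, edgeR adjusted p = 0.000626), and Zfp467 was lower with -1.41 (edgeR adjusted p = 0.0412), a call lost without the 2 month library (-0.63, edgeR adjusted p = 0.46). Pparg did not pass against endothelial-like cells (-2.05, edgeR adjusted p = 0.0612) or mural-like cells (-1.33, edgeR adjusted p = 0.242). The Zfp467 call was also lost without the 3 week library. The higher calls of Ebf2 against Schwann-like, endothelial-like and macrophage-like cells were lost without the 2 month library, and those of Zfp423 against Schwann-like, lymphocyte-like and macrophage-like cells without the 3 week library. Over all contrasts, without the 3 week library the higher calls were 14 and the lower ones 1, and without the 2 month library the lower ones were 2.

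The adipocyte-like cells were then set against fibroblast-like cells of the same library. They had a neonatal median of 25400.5 UMIs, against 9143 in fibroblast-like cells, and a median of 62.5% of the fibroblast markers were also detected in them. Among neonatal cells 3 of 7 measured genes were at least 2-fold higher and 0 lower, where 18.2% of all genes were higher and 24.7% lower. A gene counts as measured at 10 CPM or more in 1 of the 2 profiles. Klf15 and Zfp423 passed through the adipocyte-like cells alone, so the place of Klf15 among the 3 higher genes is not independent of that rule. Klf15 was 50.8-fold higher (95% interval 32.4 to 79.0), Cebpa 17.4-fold (15.7 to 19.3) and Pparg 9.79-fold (8.27 to 11.5). Cebpb, at 635 against 984 CPM, and Ebf1, at 412 against 495 CPM, were not among the genes that differed 2-fold. Of 16 dissociation-response genes 14 were lower in the adipocyte-like cells, and their part in the Cebpb value was not tested. Ebf2 gave 1 UMI in 36 cells. Cebpa, Cebpb and Ebf1 had a UMI in each of the 36 cells, Pparg in 28, Klf15 in 19 and Zfp423 and Zfp467 in 11. At 3 weeks Ebf2 gave 6 UMIs in 5 cells (42.8 CPM against 20.5 in fibroblast-like cells) and at 2 months 1 UMI in 4 cells. Without the 7 cells in the top 6% of doublet scores, Pparg was at 183, Cebpa at 558 and Klf15 at 41.7 CPM in the 29 that were left, and the fibroblast marker Dcn was at 353 CPM against 3791 CPM in fibroblast-like cells. The later libraries had only 5 and 4 such cells. Pparg, Cebpa and Klf15 were again above the fibroblast-like levels in them. Ebf1 was too, at 614 against 234 CPM at 3 weeks and 642 against 250 CPM at 2 months, unlike in neonates.

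Within the neonatal fibroblast-like cells Pparg and Cebpa were higher where 2 or more preadipocyte markers were detected, while cells with 0 and 1 marker did not differ beyond counting error. Cells were thinned to 5000 UMIs and split by how many of 12 markers, such as Fabp4, Cd36 and Adipoq, had a UMI. Cells with 0, 1, 2 and 3 or more markers numbered 3103, 1664, 431 and 142, with median depths before thinning of 9283, 9869.5, 11053 and 13219 UMIs. Pparg was at 13.2, 16.1, 33.4 and 76.1 CPM over these steps, and at 240 CPM in adipocyte-like cells. Cebpa was at 24.8, 25.5, 43.6 and 74.6 CPM, and at 406 CPM in adipocyte-like cells. The share of cells with a Pparg UMI went from 6.28% to 27.5% over the steps and was 68.6% in adipocyte-like cells. Cebpb was at 850, 900, 1204 and 1432 CPM but at 691 CPM in adipocyte-like cells, so its order turned at the last step. Ebf2 went from 4.06 to 21.1 CPM over the steps and had no UMI in the 35 thinned adipocyte-like cells, which allows up to 17.1 CPM. Ebf1 ranged from 459 to 573 CPM in neonates, with no steady order. At 3 weeks it was at 213, 262, 348 and 496 CPM over the steps, and at 2 months at 246, 307 and 324 CPM over the first 3. Neonatal Zfp467 was at 26.2, 25.1, 22.3 and 14.1 CPM. At 3 weeks Pparg was at 3.69, 7.15, 17.3 and 29.6 CPM, the last from 27 cells. At 2 months only 3 cells had 3 or more markers, and Pparg was at 1.44, 0.93 and 1.77 CPM in the first 3 steps.

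**Figure D2:**
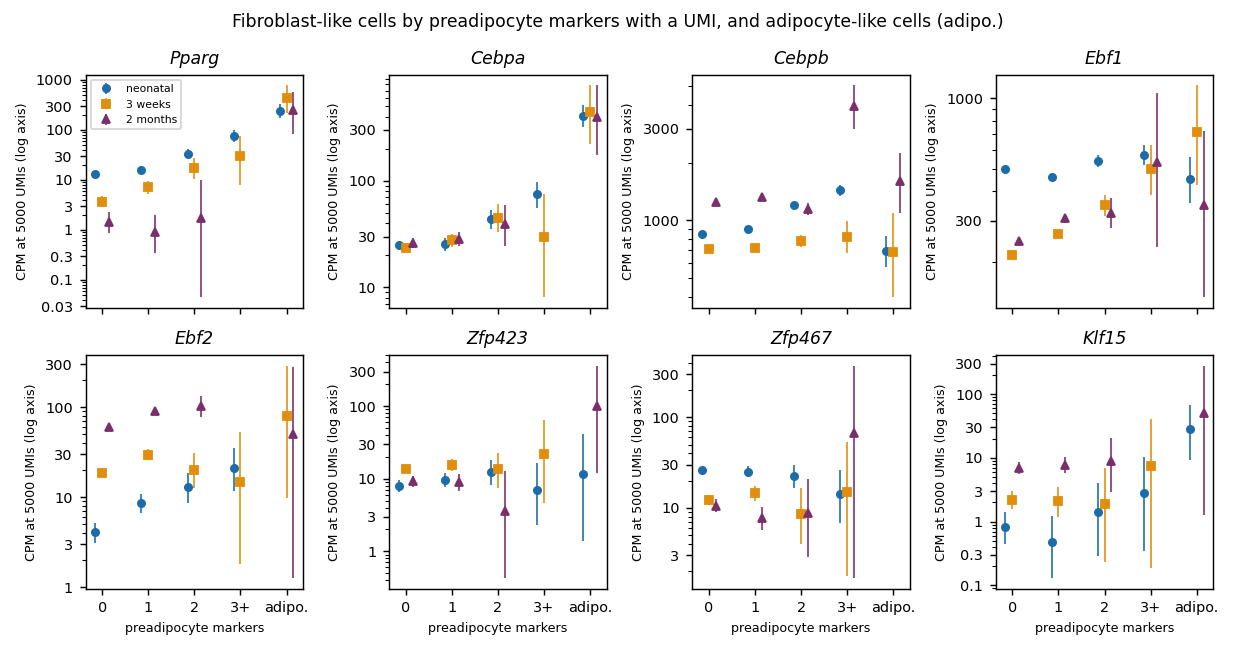
Level of each gene at 5000 UMIs per cell (y axis, CPM on a log axis) in fibroblast-like cells with 0, 1, 2 and 3 or more preadipocyte markers and in adipocyte-like cells (x axis), by library, with 95% Poisson intervals; points at 0 UMIs are not drawn. Neonatal Pparg climbed from 13.2 to 240 CPM, whereas neonatal Cebpb peaked at 1432 CPM before the adipocyte-like cells.

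In both later libraries the fibroblast-like cells had less Pparg, Ebf1 and Zfp467 and more Ebf2 and Klf15 than in the neonatal one. From neonatal to 3 weeks 1 of 7 measured genes was at least 2-fold higher and 2 were at least 2-fold lower, beside 8.24% and 11% (19.2% in all) of the 8521 measured genes. A gene counts as measured at 10 CPM or more in 1 of the 2 libraries, here and for all genes. Pparg, Ebf2 and Zfp423 reached 10 CPM only in the library where each was higher, so their place in these counts depends on that level. Pparg was 3.71-fold lower at 3 weeks, with a log2 ratio of -1.89 (95% interval -2.07 to -1.72). Ebf1 was 2.12-fold lower (log2 ratio -1.08), just inside the 2-fold limit, and Zfp467 1.91-fold lower, just outside it. Ebf2 was 2.48-fold higher (log2 ratio 1.31, 1.16 to 1.46). The log2 ratios of Cebpa (-0.32), Cebpb (-0.50) and Zfp423 (0.54) were smaller. The median log2 ratio was -0.50 over the 7 genes and -0.20 over all measured genes. With TMM scaling the median of all genes was 0.01, the split moved from 702 higher and 936 lower genes to 943 and 600, and Ebf1 at -0.89 no longer reached 2-fold. Without mitochondrial, ribosomal-protein and haemoglobin genes the split was 588 and 1682. With at most 5% mitochondrial UMIs the log2 ratio of Ebf1 was -0.87.

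From 3 weeks to 2 months Ebf2 was again higher, 2.84-fold (log2 ratio 1.51, 1.42 to 1.60). It was 1 of 6 measured genes, with 0 lower, beside 3.49% and 3.09% (6.58% in all) of the 8053 measured genes. Cebpb had a log2 ratio of 0.84 and Zfp423 of -0.53, while Ebf1 (0.10), Cebpa (0.11) and Zfp467 (-0.09) were nearly level. Pparg and Klf15 were below 10 CPM at both ages and so were not counted. Their levels still differed beyond counting error, Pparg 3.67-fold lower and Klf15 3.59-fold higher at 2 months. Over the whole span from neonatal to 2 months 1 of 6 measured genes was higher and 2 were lower, beside 11.3% and 16.1% (27.4% in all) of all measured genes. Ebf2 was 7.04-fold higher, Pparg 13.6-fold lower and Zfp467 2.04-fold lower, and the uncounted Klf15 was 8.29-fold higher. Of these, Ebf2 and Pparg reached 10 CPM only at the age where each was higher. These comparisons share libraries and are not independent of one another.

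**Figure D3:**
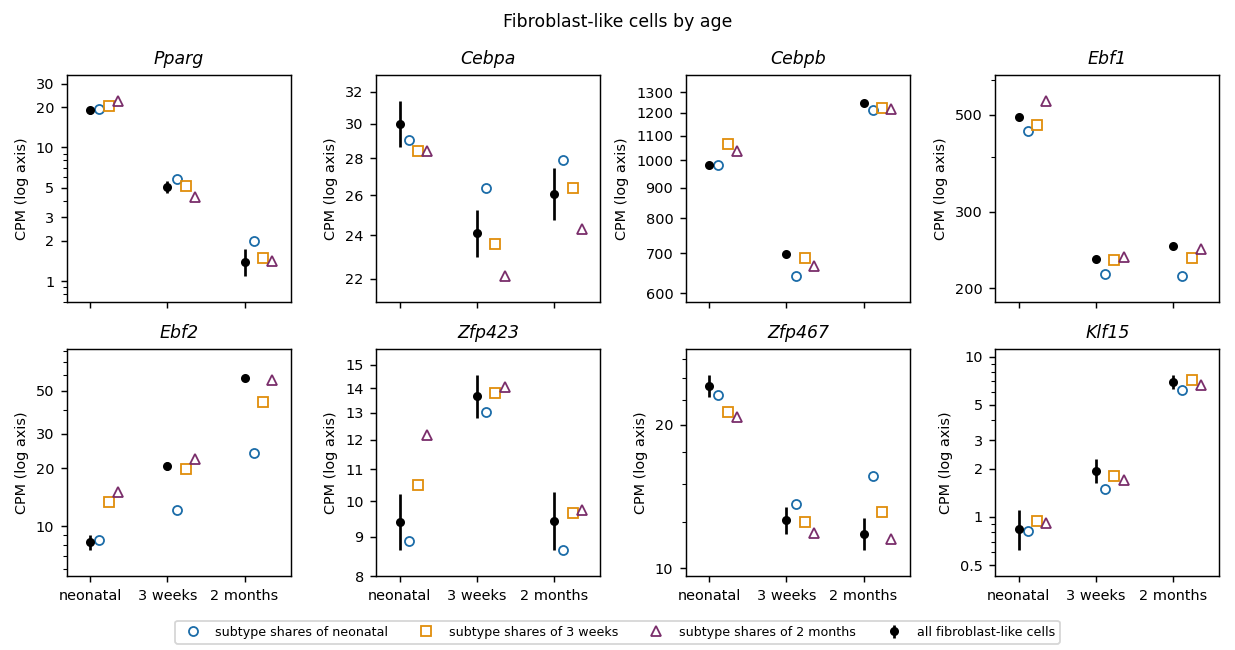
Level of each gene in fibroblast-like cells (y axis, CPM on a log axis) at 3 ages (x axis). Filled circles are all fibroblast-like cells with 95% Poisson intervals, and open symbols are levels recomputed with the subtype shares of 1 library. Pparg went from 18.9 to 1.39 CPM, while the climb of Ebf2 from 8.27 to 58.2 CPM was smaller when shares were held.

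Fibroblast-like cells were further gated at 5000 UMIs into 9 subtypes by marker lists, again without the 8 genes. Each of 6 subtypes was tested against the mean of the others with edgeR over 13081 genes. Of 48 tests 7 were higher and 4 lower, with 22 at an unadjusted p under 0.05. The cycling group entered with the neonatal and 3 week libraries only, since it had 8 cells at 2 months. It is also part of the mean that the other subtypes were set against. The clearest pattern was that of Ebf2, which was concentrated in cells of the interstitial progenitor and reticular lists. The interstitial progenitor list (Pi16, Dpp4 and others) marks fibroblasts of the fascia and between fat lobules, and its cells numbered 157, 639 and 1061. In them Ebf2 was at 32.5, 65.0 and 213 CPM, and in the reticular group at 45.0, 62.7 and 107 CPM. In the follicle-associated group it was at 4.40, 5.37 and 6.21 CPM, and in the group gated on the papillary list at 0.861, 0.446 and 3.18 CPM. Dermal papilla-list cells, 60, 13 and 12 in number, gave no Ebf2 UMI, which allows up to 5.82, 9.33 and 7.09 CPM at 3 counts. Levels of 174, 248 and 352 CPM in the nerve-associated list rest on 13, 15 and 21 cells. All 3 libraries thus kept the interstitial and reticular groups above the follicle-associated and papillary-list groups for Ebf2.

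In the interstitial group 4 genes were higher and 1 lower, beside 13.8% and 9.53% of all genes. Ebf2 was higher by 3.30 on the log2 scale (SE 0.37, edgeR adjusted p = 3.96e-05), Zfp423 by 0.80 (edgeR adjusted p = 0.0055) and Ebf1 by 0.73 (edgeR adjusted p = 0.0433), and Klf15 passed too (edgeR adjusted p = 0.0113). Zfp467 was lower with -0.95 (edgeR adjusted p = 0.0151). In the reticular group 3 were higher and 0 lower (9.39% and 4.52% of all genes). Ebf2 was higher by 3.03 (edgeR adjusted p = 0.000271), Cebpb by 1.002 (edgeR adjusted p = 0.00635), and Klf15 passed (edgeR adjusted p = 0.000369). Klf15 was at 3.53, 7.37 and 24.5 CPM in the reticular group and had no UMI in the cycling and dermal sheath-list groups, so no fold is given. Those empty groups lower the mean that the Klf15 calls of the interstitial and reticular groups were set against. In the papillary-list group 0 were higher and 1 lower (4.33% and 3.29%), Ebf2 with -3.90 (edgeR adjusted p = 0.00202). In the cycling group 0 were higher and 2 lower (10.7% and 5.81%), Cebpb with -1.12 (edgeR adjusted p = 0.019) and Zfp423 with -0.87 (edgeR adjusted p = 0.0298). No call was made in the follicle-associated group (0.887% and 0.505% of all genes) or the dermal sheath-list group (2.81% and 1.60%). None of the 10 leading genes of the papillary-list group was one of its own markers, and the dermal sheath-list group was led by Myh11, Acta2 and Rgs5, which mural cells share. The calls of Ebf2 in the interstitial and reticular groups held under all 9 alternatives, and that of Klf15 in the reticular group was lost with no library block (edgeR adjusted p = 0.075). Every other subtype call was lost without the 3 week library, which left 3 higher and 0 lower, and 2 lower calls were left without the 2 month library. With no library block 2 higher and 1 lower calls were made.

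Pparg and Cebpa passed in no subtype contrast. The preadipocyte-list group, with 44, 7 and 2 cells, was too small to test. Pparg was at 100.8 (78.3 to 128) and 75.3 CPM in it, with no UMI at 2 months, and Cebpa at 81.5 and 56.5 CPM, again with no UMI at 2 months. Elsewhere Pparg was at 25.6, 6.38 and 2.13 CPM in the follicle-associated group, which held most of its fibroblast-like UMIs in the neonatal library (681 of 1133, from 2457 of 5973 cells). In the interstitial group it was at 12.1, 4.46 and 0.568 CPM. Dermal papilla-list cells stood out for other members, with Ebf1 at 1388, 939 and 678 CPM and Zfp467 at 38.8, 87.1 and 92.2 CPM. Their Cebpa was at 33.0, 162 and 52.0 CPM. That was below the follicle-associated group in neonates (36.7 CPM) and below the dermal sheath-list group at 2 months (59.1 CPM). These values come from few cells and were not tested.

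**Figure D4:**
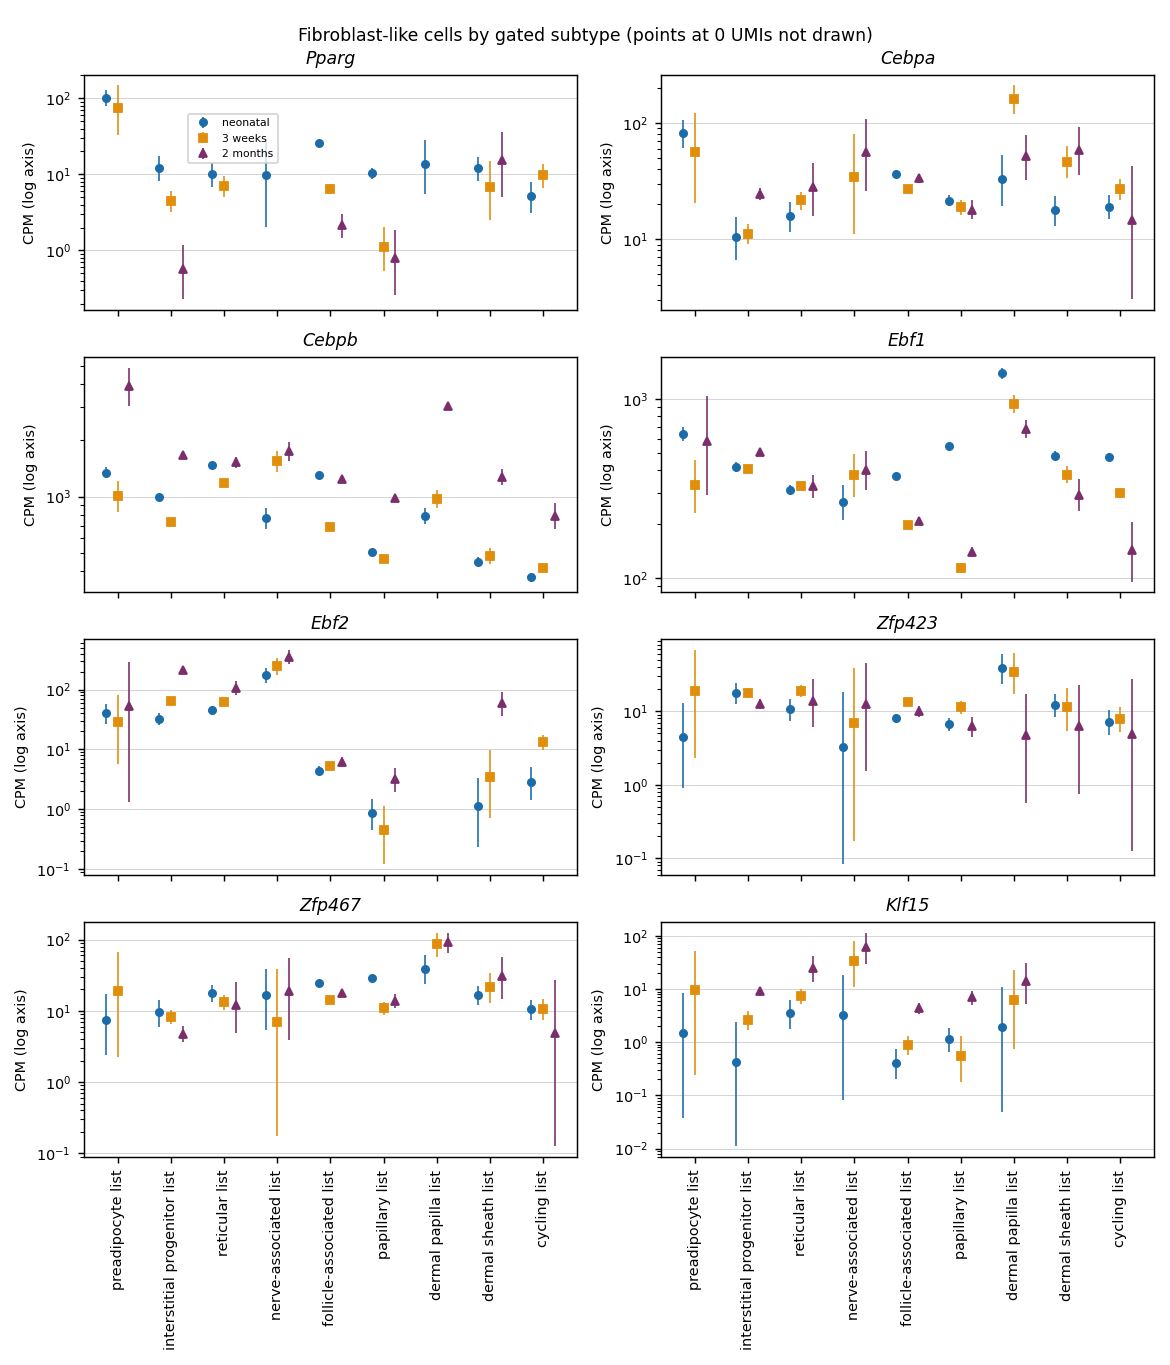
Level of each gene (y axis, CPM on a log axis) in 9 gated subtypes of fibroblast-like cells (x axis) by library, with 95% Poisson intervals. Ebf2 stood between 32.5 and 213 CPM in the interstitial progenitor list and between 0.446 and 3.18 CPM in the papillary list.

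The subtypes also changed in number, so the age ratios were recomputed with subtype shares held at those of 1 library, an alternative chosen after seeing the data. The interstitial group made up 2.94%, 12.2% and 26.2% of the cells that could be gated. Over fibroblast-like cells with 5000 or more UMIs the log2 ratio of Ebf2 from neonatal to 3 weeks was 1.20, and 0.50, 0.57 and 0.58 at the neonatal, 3 week and 2 month shares. From 3 weeks to 2 months it was 1.53, and 0.98, 1.15 and 1.34 at held shares. From neonatal to 2 months it was 2.73, and 1.48, 1.71 and 1.92 at held shares. The Ebf2 ratios were thus smaller at held shares and stayed positive. Within the interstitial group alone, Ebf2 was higher by 2.71 on the log2 scale at 2 months than in neonates (2.38 to 3.06), and in the reticular group by 1.25 (0.79 to 1.69). The papillary-list and dermal sheath-list groups were also higher, from 20 or fewer UMIs per library. In the follicle-associated group the log2 ratio of Ebf2 was within counting error at each step. It was 0.29 (-0.07 to 0.65) from neonatal to 3 weeks and 0.21 (-0.17 to 0.58) from 3 weeks to 2 months. Both steps had the same sign, and over the whole span the level went from 4.40 CPM (117 UMIs) to 6.21 CPM (99 UMIs). The follicle-associated group is therefore not read as unchanged. Pparg stayed lower at 3 weeks under every set of shares, with log2 ratios of -1.74, -1.99 and -2.40 beside -1.92. For Klf15, from neonatal to 2 months, the log2 ratio was 3.02, and 2.92, 2.91 and 2.87 at held shares.

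The age ratio of Ebf1 was not alike in every subtype. From neonatal to 3 weeks its log2 ratio was -2.26 (-2.36 to -2.17) in the papillary-list group, with 548 against 114 CPM. In the interstitial group it was -0.05 (-0.15 to 0.06), with 417 against 404 CPM, and in the reticular group 0.07 (-0.04 to 0.19). In the follicle-associated group Ebf1 went from 370 to 197 CPM, and it was at 207 CPM at 2 months. From neonatal to 2 months the log2 ratio was -1.96 (-2.07 to -1.86) in the papillary-list group. Over that span it was 0.27 (0.18 to 0.37) in the interstitial and 0.08 (-0.16 to 0.30) in the reticular group. Cells gated on 1 list at different ages need not be the same cells, and these differences were not tested.

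Pairs of genes were counted in the same fibroblast-like cell after thinning to 5000 UMIs, which left 5340, 5239 and 4049 cells. Pparg was seen in 7.72%, 2.52% and 0.64% of them, Cebpa in 12.3%, 11.3% and 11.95%, Ebf2 in 2.47%, 7.64% and 19.3%, and Cebpb in 80.3%, 84.4% and 93.8%. The median cell had 2 of the 8 genes. Of 28 pairs, 23, 24 and 24 had 5 or more cells expected from the product of the shares. Of these 1, 2 and 2 were seen together in at least 1.5 times the expected number, and 1 in each library at most 0.67 times. Pairs of other genes were not counted, so these counts, and those within subtypes, are not read as many or few. Median ratios were 1.05, 1.10 and 1.02. A ratio cannot pass 1 divided by the larger of the 2 shares. No pair with Cebpb could therefore reach 1.5, nor any neonatal pair with Ebf1, seen in 72.5% of those cells. In such pairs a ratio near 1 does not show independence. In neonates Ebf2 was in 2.94% of cells with Cebpb and 0.571% of those without, at a ratio of 1.19. Pparg and Cebpa met in 77 neonatal cells where 50.8 were expected, a ratio of 1.52 (1.20 to 1.90), and in 20 cells against 14.9 at 3 weeks (0.82 to 2.08). Without cycling and preadipocyte-list cells 0 neonatal pairs reached 1.5. Ebf1 and Ebf2 met in 330 cells against 220 at 3 weeks (ratio 1.502) and in 705 against 439 at 2 months (1.60), but in 102 against 95.7 in neonates (1.07). Ebf2 and Klf15 met in 49 cells against 27.4 at 2 months (1.79, 1.32 to 2.37). Pparg and Ebf2 met in 8 cells against 10.2 in neonates and in 18 against 10.1 at 3 weeks (1.79, 1.06 to 2.82).

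**Figure D5:**
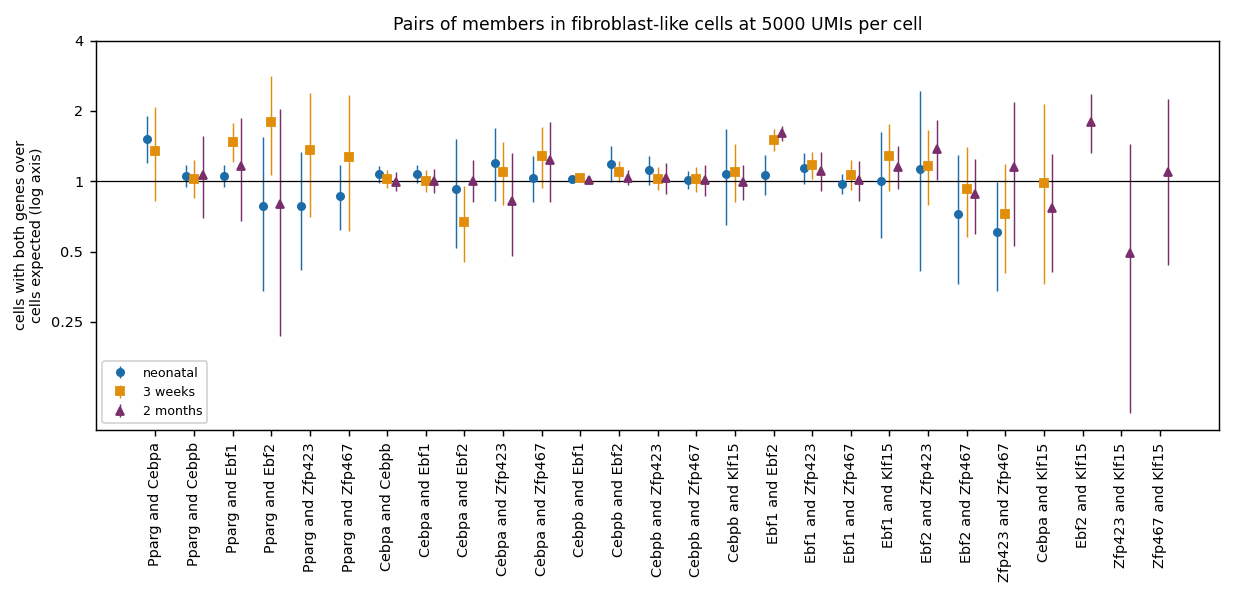
Cells with a UMI of both genes over the number expected (y axis, log axis) for pairs with 5 or more cells expected (x axis), by library, in fibroblast-like cells thinned to 5000 UMIs. Bars are 95% Poisson intervals of the count, and the line marks 1. Pairs of Ebf1 and Ebf2 stood at 1.502 and 1.60 in the later libraries and at 1.07 in neonates, where no pair with Ebf1 could reach 1.5.

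Within the interstitial and reticular groups the ratios of Ebf1 and Ebf2 were closer to 1. Ebf1 was common there, at 504 CPM in interstitial cells at 2 months and 325 CPM in reticular cells at 3 weeks. Its share limits how far a ratio can pass 1, so these ratios do not show independence. The limit holds for other pairs with a common gene too. In interstitial cells at 2 months Ebf1 and Ebf2 met in 608 cells against 587 expected (ratio 1.04), and in reticular cells at 3 weeks in 102 against 99.5 (1.03). In follicle-associated cells at 3 weeks they met in 29 against 19.7 (1.47, 0.99 to 2.12). Over all subtypes 85, 71 and 49 pairs could be compared, 1, 4 and 1 of them at 1.5 or more and 3, 1 and 0 at 0.67 or less. The pair of Pparg and Ebf1 kept a ratio of 1.58 (1.19 to 2.06) within the follicle-associated group at 3 weeks, where 55 cells had both and 34.8 were expected. There 79.7% of cells with a Pparg UMI had Ebf1, against 49.6% of the rest. In neonatal follicle-associated cells the pair met in 208 cells against 189 (1.10). Zfp423 and Zfp467 met in 0 of 1543 neonatal papillary-list cells, where 6.94 were expected.

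Cebpb is an immediate response gene as well as an adipogenic one. Within each library its level in fibroblast-like cells was higher where genes that respond to dissociation were higher. When fibroblast-like cells of a library were split into 3 equal parts by their UMIs of 16 such genes (Fos, Jun, Egr1 and others), from lowest to highest, Cebpb was at 446, 845 and 1438 CPM in neonates, 570, 725 and 848 CPM at 3 weeks and 1073, 1164 and 1592 CPM at 2 months. The summed list was at 26551, 28426 and 35414 CPM in fibroblast-like cells. It was thus higher at 3 weeks than in neonates, where Cebpb was lower at 3 weeks. Mural-like cells, the highest class for Cebpb, had less of the list in each library, at 17915, 12484 and 24931 CPM. In the reticular group, where Cebpb passed, 5 of the 16 genes were also higher and 0 lower by edgeR, beside 9.39% and 4.52% of all genes. The list's part in the Cebpb values was not tested. Neonatal Pparg was likewise ordered from the lowest to the highest part, at 10.4, 18.0 and 23.8 CPM, and neonatal Ebf1 ran the other way, at 593, 471 and 411 CPM.

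Between subtypes the other genes of the pathway were called in both directions. In the interstitial group 2 of 20 adipocyte targets were higher and 2 lower by edgeR, with 4 and 1 of 21 pro-adipogenic and 6 and 4 of 19 anti-adipogenic regulators, beside 13.8% and 9.53% of all genes. In the reticular group 3 and 0 adipocyte targets, 5 and 0 pro-adipogenic and 5 and 1 anti-adipogenic regulators were higher and lower, beside 9.39% and 4.52% of all genes. The share of adipocyte targets higher in the interstitial group was not above that of all genes.

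With age the other genes of the pathway were counted in fibroblast-like cells from lists chosen with earlier results of these data known. Of 13 measured adipocyte target genes 1 was at least 2-fold higher and 5 lower at 3 weeks than in neonates, where 8.24% of all measured genes were higher and 11% lower. Fabp4, which binds fatty acids, went from 539 to 30.7 CPM, and Scd1, a fatty acid desaturase, from 10.8 to 48.5 CPM. Of 17 pro-adipogenic regulators 3 were higher and 1 lower, among them Srebf1, a driver of lipid synthesis, from 19.5 to 42.9 CPM, and Klf5 from 51.9 to 18.1 CPM. Of 16 anti-adipogenic regulators 1 was higher and 1 lower, Zfp521, which opposes Zfp423 and the early B cell factors, from 10.1 to 21.5 CPM, and Dlk1, a preadipocyte inhibitor, from 2109 to 66.1 CPM. Counts of 1 among 16 are near the share over all genes. From 3 weeks to 2 months 2 of 12 adipocyte targets were higher and 3 lower, 1 of 18 pro-adipogenic regulators was higher and 0 lower, and 0 of 15 anti-adipogenic ones were higher and 1 lower, beside 3.49% and 3.09% of all measured genes. Fabp4 went further down, from 30.7 to 3.33 CPM, and Dlk1 from 66.1 to 2.48 CPM. Plin4, a lipid droplet protein, went from 0.648 to 15.4 CPM, and Zbtb16 from 22.9 to 58.2 CPM. In this step Fabp4, Dlk1 and Plin4 reached 10 CPM only in the library where each was higher. Their place in these counts depends on that level. Of 9 glucocorticoid-responsive genes 5 were higher and 0 lower at 2 months than in neonates, among them Mt2 and Tsc22d3, where 11.3% of all measured genes were higher and 16.1% lower. Of the measured paralogs Ppard, Cebpg and Ebf4, Ebf4 alone differed 2-fold from neonatal to 3 weeks, from 11.9 to 3.20 CPM. Ebf4 too reached 10 CPM only in the library where it was higher.

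Likeness of pattern was described over 32 summed profiles of class and library, by Pearson correlation of log2(CPM + 1) across 13679 genes, with no test because profiles share libraries and depth. Ebf2 was most like C1s1 (r = 0.91), Naalad2 (0.89) and Ildr2 (0.88), and Zfp423 most like Galnt15 (0.90), Lepr (0.87) and Ntn1 (0.85). Ebf1 was most like Adam22 (0.84), Eln (0.83) and Akap12 (0.81). For Cebpa the top genes were Nme6 (0.79), Sgpp1 (0.77) and Sdr42e1 (0.77), and for Klf15 Slc25a26 (0.77), Ggnbp1 (0.76) and Ndrg2 (0.76). For Pparg they were Slc16a12 (0.73), 8430408G22Rik (0.72) and Tbkbp1 (0.72), for Zfp467 Maml2 (0.75), Kalrn (0.73) and Plekhg3 (0.73), and for Cebpb Foxs1 (0.69), Pla2r1 (0.68) and Ldb3 (0.68). Among the 8 genes themselves Ebf1 and Zfp423 (0.78) and Ebf1 and Ebf2 (0.67) were most alike.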

How the data were processed

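The deposited files held raw UMI counts per gene and barcode for 3 libraries, whole numbers that sum to a different total in each library. Per the submitters' processing notes, the tools were Seurat 2.0 and Cell Ranger 3.0.2, and mm10 was the build, with no roles given. The matrices held 84086755, 113874172 and 98432611 UMIs on 8452, 10226 and 10190 barcodes, and pairs of libraries shared 23 to 31 barcodes. A barcode was kept if it reached 300 genes and 500 UMIs and its mitochondrial share did not pass 10%. A class needed at least 50% of its markers detected and a lead of 20 percentage points. Counts were summed per library and class, and CPM and fold ratios were computed from the sums, with a 2-fold rule at 10 CPM or more. Class and subtype contrasts used edgeR 4.0.16 in R 4.3.3 (TMM, filterByExpr, quasi-likelihood test, library as block), and DESeq2 1.42.0 as an alternative. The library numbers pair classes because classes come from the same library. Scrublet and Leiden clustering (scanpy 1.11.5, leidenalg 0.10.2) served as alternatives, and doublets were kept in the main values because Scrublet's own threshold, which marked 0.0253% of neonatal cells, had not worked there. Thinning used fixed seeds. Scripts were tested on simulated data. Genes named from other lists are those with the largest CPM ratio, at most 3 per list and age comparison, and the 3 most like each member. The members and lists were chosen with earlier results of these data known.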

Additional observations from a re-analysis of the deposited data

Results flagged for a closer look

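The age ratios of 3 genes had opposite signs in different classes, from neonatal to 2 months, at 2-fold or more. These differences between classes were not tested, and each rests on 1 library per age. For Pparg the log2 ratio of CPM was -3.77 in fibroblast-like cells, 1.56 in keratinocyte-like cells (1.78 against 5.26 CPM) and 1.04 in endothelial-like cells (21.7 against 44.6 CPM). For Ebf1 it was -1.38 in keratinocyte-like cells, where the level was 4.28 CPM at most, and 2.31 in macrophage-like cells (3.46 against 17.1 CPM). These Ebf1 levels rest on 24 and 35 UMIs in keratinocyte-like and 4 and 11 UMIs in macrophage-like cells. Lymphocyte-like cells had 2.88, 2.10 and 1.90 CPM and Schwann-like cells 5.64, 9.28 and 2.57 CPM of Ebf1, against 495, 234 and 250 CPM in fibroblast-like cells. The keratinocyte-like values lie at or below these low levels and are not read as a change in that class. The part of free RNA in the values was not tested. For Zfp467 it was -1.03 in fibroblast-like cells, -2.26 in Schwann-like cells (32.9 against 6.85 CPM) and 1.95 in endothelial-like cells (26.2 against 100.9 CPM). The endothelial-like class had 37, 89 and 40 cells.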

How the results depend on the processing

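No called difference changed sign under an alternative. Small age ratios below 2-fold did. From 3 weeks to 2 months the log2 ratio of Zfp467 was 0.19 at neonatal and 0.07 at 3 week subtype shares (-0.09 in the main values), that of Ebf1 -0.01 at neonatal shares (0.10), and that of Cebpa -0.01 in fibroblast-like cells from Leiden clusters (0.11). From neonatal to 2 months the log2 ratio of Zfp423 was 0.13 over cells of 5000 or more UMIs and -0.04, -0.12 and -0.32 at held shares. Among called differences recomputed under alternatives, 305 kept their side of the threshold and 71 lost it. Of the age ratios 64 moved beyond the counting interval of the main value and 66 did not, and 75 counts stayed within 1.5 times while 21 did not. Fixed shares and the removal of doublet scores from adipocyte-like cells were chosen after seeing the data. At 3 weeks against neonatal, the count of higher members was 0 with subtype shares held at those of any library, and the count of lower members was 1 with TMM scaling and 1 with a 5% mitochondrial limit. At 2 months against 3 weeks the higher count was 0 at neonatal shares. Between classes the lower calls were 3 with a 5% mitochondrial limit and 3 with no library block, and leaving out each library gave 14 to 23 higher and 1 to 8 lower calls. Between subtypes, no library block gave 2 higher and 1 lower calls, and leaving out each library gave 3 to 8 higher and 0 to 4 lower calls. Pairs at 1.5 or more numbered 4 at 2 months when thinned to 3000 UMIs, 1 at 3 weeks with a 5% mitochondrial limit and 1 when thinned to 1500 UMIs, and 0 in neonates when thinned to 3000 UMIs or without cells gated as cycling or preadipocyte. No paired analysis was possible because each age has 1 library, so ages could not be blocked; the library block of the class and subtype fits is part of the main test. With 1 to 3 UMIs, low members such as Klf15 and Ebf2 in small classes are limited by depth, and the smallest classes give wide intervals.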
